A study of Homo sapiens with 6 samples.

Results

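The genes described here were those read in NALM6 leukaemia cells given the solvent DMSO and hardly read at all after THZ1. They were chosen by their measured counts: at least 10 reads in each of the 3 DMSO libraries and at most 3 in each of the 3 THZ1 libraries. Of the 57905 genes in the count table, 201 met both limits. Removing 14 genes with an antisense symbol, 5 small RNA genes and 2 zinc finger genes with a ZNF number, as the definition required, left 180 genes, called lost genes below. They comprised 86 protein-coding genes (47.8%), 54 long non-coding RNA genes (30%), 24 pseudogenes (13.3%) and 16 identifiers with no entry in the annotation used here (8.89%).

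NALM6 is a human B-cell precursor acute lymphoblastic leukaemia line, and all 6 libraries came from this 1 line. The control group received DMSO and the treated group 500 nM THZ1, both for 24 h, and total RNA was extracted with TRIzol. The labels number 3 libraries in each group but do not say whether they came from separate cultures, so the p-values below measure only the spread between these libraries. Library totals ran from 11015480 to 11164840 counts with DMSO and from 7876402 to 8314306 with THZ1. All 10 B-lineage markers examined, CD79A, CD79B and PAX5 among them, were above 1 CPM (a read count scaled to a common library size) in both groups. Their summed level was 3800 to 3904 CPM with DMSO and 1898 to 1967 CPM with THZ1. CD79A (128.9 and 323.4 CPM) and RAG1 (384.2 and 439.0 CPM) were higher with THZ1, and the others were lower, PAX5 among them (540.9 and 137.2 CPM). No T-cell marker in the table reached 1 CPM, and the 4 myeloid markers summed to 3.88 to 4.59 CPM with DMSO and 17 to 18 CPM with THZ1. Of these, CD14 and CSF1R were higher with THZ1 (0.636 and 8.72 CPM, and 0.111 and 6.08 CPM), LYZ was lower (2.48 and 1.39 CPM) and MPO was similar (1.08 and 1.20 CPM). The 2 stromal markers summed to 11.2 to 12.7 CPM with DMSO and 18.4 to 20.6 CPM with THZ1, but moved in opposite directions. COL1A1 was higher with THZ1 (3.709 and 15.74 CPM) and PDGFRB was lower (8.156 and 4.002 CPM). The part of these shifts in the results below was not tested.

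THZ1 binds covalently to CDK7, the kinase of the general transcription factor TFIIH. CDK7 phosphorylates the C-terminal tail of RNA polymerase II as the polymerase leaves the promoter, and, as part of the CDK-activating kinase, it also phosphorylates other cyclin-dependent kinases. When transcription of a gene stops, its RNA level follows the lifetime of the RNA already made, so a transcript can disappear from a library by less synthesis, by faster decay, or by both. Read counts from bulk RNA cannot tell apart fewer cells that express a gene and less of its RNA per cell.

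The lost genes were genes of low level. Their mean DMSO level had a median of 1.67 CPM and ran from 0.939 to 7.60 CPM, against a median of 17.1 CPM over the 16622 genes that passed the filter on low counts. Summed over the 180 genes, the DMSO libraries held 4361, 4663 and 4523 reads and the THZ1 libraries 205, 210 and 203 reads. The sums thus lay close together within each treatment, and that with THZ1 was 7.39% of that with DMSO after allowing for library size. In single THZ1 libraries, 68, 58 and 69 of the lost genes had no read at all. Over the 3 THZ1 libraries together, 14 genes had 0 reads and 88 had 1 to 3. Within DMSO, the highest library was at most 2 times the lowest for 165 of the 180 genes. Because these counts chose the genes, the 2 groups could not overlap for any of them, and no test of the lost genes themselves is given. Ratios of single genes below are per effective library size, with a 95% interval for counting error. Choosing genes by these same counts pushes the ratios up and keeps their intervals above 1, so both are descriptions.

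**Figure D1:**
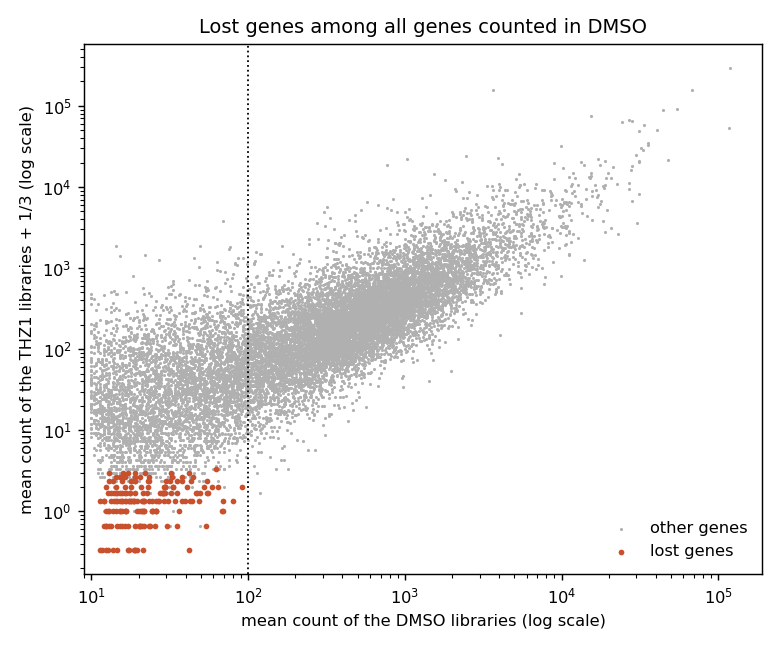
Mean read count of each gene in the DMSO libraries (x axis, log scale) against the mean in the THZ1 libraries plus 1/3 (y axis, log scale), for genes with a mean DMSO count of at least 10. The 180 lost genes (orange) fill the lower left corner, all left of the dotted line at a mean DMSO count of 100.

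How far a gene could be lost by this definition depended on its DMSO count. Of the 696 genes with at least 10 reads in each DMSO library and a mean below 20, 88 were lost (12.6%). That share was 5.39% (79 of 1467) from 20 to 50 reads, 1.04% (13 of 1251) from 50 to 100 reads, and 0 of 9512 above. Among all genes with a mean under 100 reads, 5.27% were lost (180 of 3414). By kind, the lost share was 4.35% of protein-coding genes (86 of 1976), 6.37% of long non-coding genes (54 of 848) and 6.78% of pseudogenes (24 of 354). It was 7.05% of identifiers with no entry in the annotation (16 of 227). The kinds were not matched for DMSO count, on which the share depends. Genes with more reads were reduced as much without reaching 3: 52 other tested genes had a fitted log2 fold change at or below -3.71, the fitted median of the 140 lost genes that passed the filter, and 33 of them had a mean DMSO count of at least 100. The THZ1 libraries were also smaller, with an effective size 61.7% of that of the DMSO libraries, so 10 reads with DMSO corresponded to 6.17 reads with THZ1 at an equal level, and a gene exactly at both limits was 2.06-fold lower. When the counts were first scaled to a common library size, 79 of the lost genes remained within the limits.

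At the edges of the definition, 24 lost genes had a lowest DMSO library of exactly 10 reads and 65 had a highest THZ1 library of exactly 3. OCLN stood at the second edge, with 66, 65 and 57 reads with DMSO and 3, 3 and 3 with THZ1. Just outside, 26 genes had a lowest DMSO library of 9 reads and 75 a highest THZ1 library of 4. CCR1, a chemokine receptor gene, was outside with 9, 21 and 18 reads with DMSO and 2, 1 and 1 with THZ1. TRPM2-AS, a transcript antisense to the TRPM2 channel gene, was outside by a single read, with 122, 128 and 108 reads with DMSO and 4, 0 and 0 with THZ1. CCDC146 was outside with 75, 81 and 69 reads with DMSO and 4, 2 and 4 with THZ1.

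The definition was then applied to 2 replicates of each treatment and read in the library pair left out. With replicate 1 left out, 261 genes were chosen and 69.0% of them met both limits in the libraries not used, where 2.66% of all genes with at least 10 reads in the other 2 DMSO libraries did so. The shares were 70.3% of 256 genes against 2.86% for replicate 2, and 64.7% of 278 genes against 2.62% for replicate 3. Each time, the chosen genes that met both limits in the libraries left out were the same 180 lost genes, as the definition requires. These shares are therefore descriptions and no independent support for the lost genes. In the libraries left out, the chosen genes had median counts of 19, 20.5 and 18.5 with DMSO and 1, 1 and 1 with THZ1, and the highest THZ1 counts were 12, 10 and 12.

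The promoters of 74 lost genes, 72 of them protein-coding, were in the RefSeq table of 250 bases before to 50 bases after a gene's first listed start (GRCh38.p14). The shares of promoters that held short motifs on either strand are given as descriptions. TATAAA, the core of the TATA box, was in 11 of the 74 (14.9%), in 5.45% of the promoters of protein-coding genes tested and in 12% of all 27305 promoters. GGGCGG, the GC box, was in 26 of the 74 (35.1%), against 70.4% for protein-coding genes tested and 44.6% of all promoters. CCGGAA, the core of ETS family sites, was in 8.11% of the lost genes, 30.2% of protein-coding genes tested and 17.6% of all promoters. The shares of CCAAT (39.2%, 37% and 35.7%) and of the palindrome CACGTG (8.11%, 10.2% and 7.43%) lay closer together. The median GC content was 55.5%, 65.3% and 58.3% in the same order. Among 1467 other protein-coding genes with at least 10 reads in each DMSO library and a mean under 100, TATAAA was in 7.16%, GGGCGG in 65.9%, CCGGAA in 20.3%, CCAAT in 33.9% and CACGTG in 8.86%, with a median GC content of 64.7%. This group was low in level but less so than the lost genes, of which 88 of 180 had a mean DMSO count from 10 to 20. The searched motifs may overlap one another, and a match says only that the letters are there.

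A TATAAA was present in the promoters of SLC26A9, MSTN, TXK, ENPEP, C1QTNF3, PLAC8L1, MYRFL, HAL, CABYR, CYSLTR1 and MCF2. In 4 of the 74 (5.41%) it lay on the gene's own strand, starting 45 to 16 bases before the start, as in a typical TATA box, against 2.68% of all promoters. The share was 1.8% for protein-coding genes tested and 3.2% (47 of 1467) for the other protein-coding genes of low level. That of the lost genes rests on only 4 genes. C1QTNF3 and MSTN, both for secreted proteins, are printed as examples with a TATAAA so placed, and FLT3 and MINAR1 as GC-rich promoters without TATAAA. All 4 were found once in the GRCh37 genome, at chr5:34043269-34043568 on the minus strand (C1QTNF3), chr2:190927406-190927705 on the minus strand (MSTN), chr13:28674664-28674963 on the minus strand (FLT3) and chr15:79724428-79724727 on the plus strand (MINAR1). Capitals mark the searched motifs on either strand, and sequences run 5′ to 3′ along the gene.
C1QTNF3: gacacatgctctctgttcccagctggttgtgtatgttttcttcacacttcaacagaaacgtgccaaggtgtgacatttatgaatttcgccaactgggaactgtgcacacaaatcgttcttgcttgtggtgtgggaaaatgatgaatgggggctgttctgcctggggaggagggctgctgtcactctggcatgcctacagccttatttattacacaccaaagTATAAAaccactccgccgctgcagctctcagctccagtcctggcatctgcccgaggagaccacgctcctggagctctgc
MSTN: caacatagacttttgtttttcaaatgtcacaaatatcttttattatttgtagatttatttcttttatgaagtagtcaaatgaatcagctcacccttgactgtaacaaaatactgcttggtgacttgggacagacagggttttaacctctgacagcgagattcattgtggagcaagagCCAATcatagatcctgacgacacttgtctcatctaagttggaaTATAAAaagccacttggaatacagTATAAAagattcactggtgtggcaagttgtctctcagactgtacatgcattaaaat
FLT3: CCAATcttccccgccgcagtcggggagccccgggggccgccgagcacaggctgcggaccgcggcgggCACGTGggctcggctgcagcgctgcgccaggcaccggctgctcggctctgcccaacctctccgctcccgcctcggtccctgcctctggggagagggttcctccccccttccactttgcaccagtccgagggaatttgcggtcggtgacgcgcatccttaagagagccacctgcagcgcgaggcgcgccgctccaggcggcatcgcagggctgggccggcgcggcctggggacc
MINAR1: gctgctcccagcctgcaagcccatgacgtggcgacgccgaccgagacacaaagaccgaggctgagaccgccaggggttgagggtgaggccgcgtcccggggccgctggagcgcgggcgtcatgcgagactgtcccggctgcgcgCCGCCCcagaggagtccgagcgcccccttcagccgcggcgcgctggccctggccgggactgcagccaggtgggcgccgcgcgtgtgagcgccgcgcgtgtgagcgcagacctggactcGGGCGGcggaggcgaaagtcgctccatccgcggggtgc
In C1QTNF3 the TATAAA starts 29 bases before the start, and in MSTN one starts 30 and another 6 bases before it. The GC content of these windows was 51.7% (C1QTNF3), 36% (MSTN), 74.0% (FLT3) and 75% (MINAR1). FLT3 holds a CCAAT 250 and a CACGTG 183 bases before its start, and MINAR1 holds GC boxes on both sides of its start.

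Gene lengths are likewise given as a description. The spans of the protein-coding lost genes had a median of 43930 bp (n = 86), against 30680 bp for the 11929 protein-coding genes tested and 27820 bp for 1890 other protein-coding genes with at least 10 reads in each DMSO library and a mean under 100. Spans over 100000 bp were found for 24 of the 86 (27.9%), against 17.6% and 19.3% in those groups. FHIT, a diadenosine triphosphate hydrolase gene that covers a common fragile site, was the longest named, at chr3:59733003-61237133. For the 32 of them with at least 20 reads in each DMSO library the median span was 34235.5 bp. By summed exons the median of the 86 was 4754.5 bp, against 5276 bp for protein-coding genes tested and 4623.5 bp for the others of low level. Long non-coding lost genes went the other way, with a median span of 2494.5 bp (n = 54). It was 3831 bp for the long non-coding genes tested and 3213.5 bp for 794 others of low level. A single exon block was found for 37%, 22.5% and 24.3% in the same order. The genes tested include genes with an antisense symbol, which the definition removed from the lost genes. Long non-coding genes that lie opposite another gene but have no such symbol were kept among the lost genes.

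Ion channel and transporter genes held the most abundant protein-coding lost gene. KCNMB3, which encodes an auxiliary beta subunit of the large-conductance calcium-activated potassium (BK) channel, had 88, 100 and 87 reads with DMSO and 1, 2 and 2 with THZ1. Its level was 33.9-fold higher with DMSO (14.4 to 105). The channel's pore-forming gene KCNMA1 was near 0 in both groups (mean 0.0276 and 0.0461 CPM), and the related subunit gene KCNMB1 was not called (log2 fold change 0.58 ± 0.32 SE, edgeR adjusted p = 0.093), though it was called higher with upper quartile scaling. KCNMB4, a further subunit gene of this channel, was itself a lost gene at a lower level, with 11, 17 and 11 reads against 0, 1 and 1.

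CHRNA10, for the alpha-10 nicotinic acetylcholine receptor subunit, had 40, 61 and 60 reads with DMSO and 0, 0 and 1 with THZ1. The single THZ1 read gave a ratio of 99.4 with a wide interval of 17.6 to 3949. GRIK1, a kainate-type glutamate receptor subunit gene, had 11, 14 and 10 reads with DMSO and none with THZ1, and was at least 7.20-fold higher with DMSO, with 3 reads over the THZ1 libraries taken as the limit that a count of 0 allows. TMC3, a transmembrane channel-like gene, had 21, 16 and 17 reads with DMSO and 2, 3 and 1 with THZ1. The 4 transporters were SLC26A9, SLC35D2, SLC29A4 and SLC35G2. SLC35D2, a nucleotide sugar transporter gene, had 21, 22 and 30 reads against 1, 1 and 1, and was 15-fold higher with DMSO (4.94 to 74.5). Over the 9 genes of this group the median summed count was 54 with DMSO and 3 with THZ1.

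Immune and complement genes made up 15 of the 86 protein-coding lost genes, grouped after their values were seen. TLR10, a Toll-like receptor gene expressed in B cells, was the most abundant of them, with 66, 73 and 66 reads with DMSO and 0, 1 and 1 with THZ1. It was 63.3-fold higher with DMSO (17.3 to 526). Its neighbours in the receptor cluster on chromosome 4 were not lost. TLR1, 7687 bp away, had 65, 64 and 49 reads with DMSO and 19, 18 and 15 with THZ1 and was called lower by a smaller amount (log2 fold change -1.07 ± 0.26 SE, edgeR adjusted p = 0.00034). TLR6, the third gene of the cluster, had 32, 54 and 32 reads against 38, 31 and 19 and was not called (log2 fold change 0.27 ± 0.28 SE, edgeR adjusted p = 0.36). The annotated span of TLR6 (chr4:38824518-38858438) lies inside that of TLR1 (chr4:38792298-38858438), so their reads may not be cleanly separated. The difference between the neighbours was not tested.

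FLT3, a receptor tyrosine kinase of early haematopoietic cells, had 27, 24 and 47 reads with DMSO and 3, 3 and 1 with THZ1, and was 8.64-fold higher with DMSO (4.04 to 22.1). Its spread within DMSO was wide, with 1 library well above the other two. The gene of its ligand, FLT3LG, had 3, 4 and 0 reads against 7, 6 and 14. PTPRC, for the CD45 phosphatase of leukocytes, had 15, 14 and 14 reads with DMSO and 0, 0 and 3 with THZ1, with all its THZ1 reads in 1 library. TXK, a Tec family kinase gene, had 22, 27 and 12 reads with DMSO and 2, 3 and 2 with THZ1. BTK, the Tec family kinase of B cells, stayed far more abundant, with mean levels of 196 ± 3.79 CPM in the DMSO and 105 ± 5.38 CPM in the THZ1 libraries (SD, n = 3; log2 fold change -0.89 ± 0.07 SE, edgeR adjusted p = 4.6e-13).

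**Figure D2:**
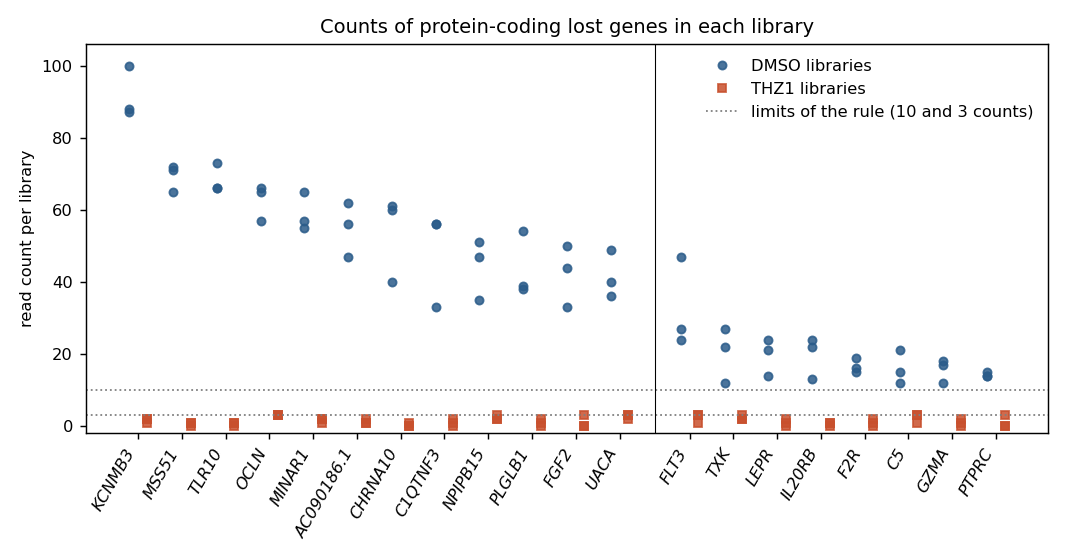
Read count in each DMSO library (blue circles) and each THZ1 library (orange squares) for the 12 protein-coding lost genes with the highest DMSO level and, right of the line, 8 further lost genes of the immune and complement group. Dotted lines mark 10 and 3 counts, and KCNMB3 is highest, with 88, 100 and 87 reads with DMSO against 1, 2 and 2 with THZ1.

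The cytokine receptor genes among them were LEPR, for the leptin receptor, and IL20RB, for a subunit of the receptors of the interleukin-20 family. IL20RB had 13, 24 and 22 reads with DMSO and 0, 1 and 1 with THZ1, and LEPR 14, 21 and 24 against 1, 0 and 2. Genes of effector proteins were also present at low level. GZMA, a granzyme gene of cytotoxic lymphocytes, had 12, 17 and 18 reads with DMSO and 0, 2 and 1 with THZ1. MPEG1, for the pore-forming perforin-2 of phagocytes and B cells, had 12, 14 and 16 reads against 1, 0 and 2. The complement genes C5 and C1R had 12, 15 and 21 reads against 3, 3 and 1, and 10, 15 and 11 reads against 1, 0 and 0. CYSLTR1 (cysteinyl leukotriene receptor), GIMAP4 (a GTPase of lymphocytes), LGALS3 (galectin-3), HLA-DQB2 (an MHC class II beta chain) and F2R (a thrombin receptor) completed the group. Each library of these 5 genes had 10 to 20 reads with DMSO.

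Chemosensory receptor genes, of families first known from the tongue and nose, were also among the lost genes. TAS2R14, a bitter taste receptor gene, had 40, 40 and 26 reads with DMSO and 1, 0 and 0 with THZ1, a ratio of 65.4 (11.5 to 2608). TAS2R20 had 23, 17 and 30 reads against 0, 1 and 0. The 2 taste receptor genes share an annotated span on chromosome 12, where TAS2R14 covers chr12:11090007-11324172 and contains TAS2R20, so reads of 1 could have been given to the other. OR7D2, an odorant receptor gene, had 33, 33 and 42 reads against 0, 2 and 0 and was 33.3-fold higher with DMSO (9.01 to 279).

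Of the 6 genes for secreted factors, C1QTNF3 was the most abundant, with 56, 33 and 56 reads with DMSO and 1, 0 and 2 with THZ1. This gene, whose TATA-containing promoter is printed above, was 29.8-fold higher with DMSO (10 to 146). FGF2, for basic fibroblast growth factor, had 44, 33 and 50 reads with DMSO and 0, 0 and 3 with THZ1, a ratio of 26.1 (8.74 to 128). All 3 of its THZ1 reads came from 1 library. On the opposite strand of FGF2 lies the non-coding lost gene ENSG00000273007, with 30, 16 and 18 reads with DMSO and none with THZ1. NUDT6, the antisense partner that overlaps FGF2, was not called (log2 fold change -0.35 ± 0.17 SE, edgeR adjusted p = 0.059), though it was called lower with library totals as the only scaling. MSTN, for the muscle growth inhibitor myostatin, had 14, 10 and 14 reads with DMSO and none with THZ1. It was at least 7.82-fold higher with DMSO.

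Among the 10 genes for transcription factors and signalling proteins, PAX6, a homeobox factor of eye and brain development, had 20, 20 and 23 reads with DMSO and 0, 0 and 1 with THZ1. PLAGL1, a zinc finger factor gene subject to imprinting, had 33, 21 and 23 reads against 0, 1 and 1. NKD2, for a Wnt antagonist, had 22, 26 and 26 reads against 0, 2 and 0, and was 22.8-fold higher with DMSO (6.10 to 192). CSRNP3, MAP3K19, MCF2, DGKG, RAB31, PRICKLE1 and BOC were the others, and their ratios lay between 5.86 (DGKG) and 19.4 (RAB31).

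Genes of junctions, the cytoskeleton and the cilium numbered 8. OCLN, for the tight junction protein occludin, was 12.9-fold higher with DMSO (6.65 to 28.6), from the counts given above. The copy OCLNP1 nearby on chromosome 5 was also a lost gene (23, 32 and 18 reads against 0, 2 and 0), and reads may have been split between the 2 near-identical genes. CAP2, an actin-binding protein gene, had 19, 20 and 17 reads with DMSO and none with THZ1, and was at least 11.5-fold higher with DMSO. LCA5, for the ciliary protein lebercilin, had the smallest ratio of all lost genes, 3.01 (1.39 to 7.45), from 13, 16 and 10 reads against 2, 3 and 3. NINL, for a ninein-like centrosomal protein, had 23, 34 and 30 reads against 2, 1 and 2. Enzyme and cell cycle genes numbered 7, among them ENPEP (glutamyl aminopeptidase) with 24, 44 and 31 reads against 1, 1 and 3, and POLN (DNA polymerase nu) with 22, 18 and 15 reads against 2, 1 and 0. Of the 27 protein-coding genes given no role here, MSS51, annotated as a mitochondrial translational activator, had 65, 71 and 72 reads against 1, 1 and 0, a ratio of 64.2 (17.6 to 534). MINAR1, whose GC-rich promoter is printed above, had 65, 55 and 57 reads against 2, 1 and 2.

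Other abundant genes of this kind were PLGLB1, a plasminogen-like gene, with 39, 54 and 38 reads against 2, 1 and 0, UACA with 36, 49 and 40 against 2, 3 and 3, AC090186.1 with 56, 47 and 62 against 2, 1 and 1, and NPIPB15 with 51, 35 and 47 against 3, 2 and 2. NPIPB15 and PLGLB1 belong to duplicated gene families whose copies can share reads, so their counts are uncertain.

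For the log2 differences between THZ1 and DMSO given here, every sum below 3 reads over the THZ1 libraries was set to 3. Genes with 1 or 2 THZ1 reads therefore have smaller differences here than by their ratios above. The median difference was -3.11 for the 15 immune and complement genes, -3.0 for the 9 channels and transporters and -3.45 for the 6 secreted factors. It was -3.47 for the 10 transcription and signalling genes and -4.15 for the 4 taste, odorant and orphan receptor genes. By kind, it was -3.33 for protein-coding genes, -3.61 for long non-coding genes and -3.35 for pseudogenes. Over all 180 genes it was -3.42, with single values from -5.63 to -1.59, and the fitted median over all genes tested was 0.03.

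The other genes of the families that hold a lost gene were fitted in edgeR across all genes, where 41.1% of the 16622 genes tested were called lower and 43.5% higher at an adjusted p below 0.05. Of 18 family lists, 8 held 20 lost genes between them. Their 809 other tested genes were called lower in 315 cases (38.9%) and higher in 339 (41.9%), close to the shares of all genes. Of 13 other Toll-like and NOD-like receptor genes, 10 were lower and 1 higher, and of 97 other ion channel genes, 21 were lower (21.6%) and 58 higher (59.8%). Of 45 other cytokine and receptor genes, 10 were lower and 24 higher, or 15 and 22 with library totals as the only scaling. Solute carriers (100 of 222 lower, 84 higher) and small GTPase regulators (79 of 168 lower, 57 higher) lay near the background.

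Within these families, several receptor genes fell without reaching the limits. TLR3, the receptor of double-stranded RNA, fell from 2.79 ± 0.468 to 0.314 ± 0.204 CPM (SD, n = 3; log2 fold change -3.10 ± 0.47 SE, edgeR adjusted p = 4.3e-07). NLRP3, the inflammasome sensor gene, had 49, 61 and 45 reads with DMSO and 5, 8 and 2 with THZ1 (log2 fold change -2.65 ± 0.37 SE, edgeR adjusted p = 1.1e-07). IL7R, for the interleukin-7 receptor of early lymphoid cells, fell from 333.7 ± 33.7 to 20.2 ± 1.61 CPM, as large a change as that of many lost genes from a level far above theirs (log2 fold change -4.05 ± 0.09 SE, edgeR adjusted p = 1.2e-26). KIT, a receptor tyrosine kinase related to FLT3, had 98, 95 and 72 reads against 5, 4 and 7 (log2 fold change -3.33 ± 0.32 SE, edgeR adjusted p = 2.8e-11). In the other direction, CSF3R had no read with DMSO and 22, 18 and 23 reads with THZ1.

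**Figure D3:**
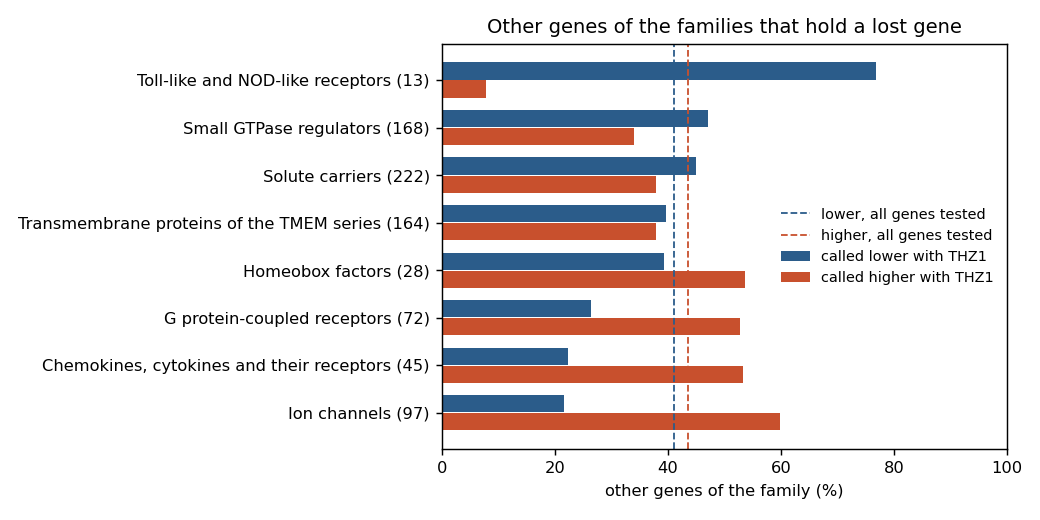
Percent of the other tested genes of each family called lower (blue) or higher (orange) with THZ1, for the 8 families that hold at least 1 lost gene, with the number of genes in brackets and dashed lines at the shares of all genes tested (41.1% and 43.5%). Toll-like and NOD-like receptors stand at 76.9% lower, and ion channels at 59.8% higher.

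Long non-coding lost genes mostly had no symbol beyond their identifier. The most abundant, ENSG00000250899, had 74, 90 and 77 reads with DMSO and 0, 1 and 2 with THZ1, and was 49.6-fold higher with DMSO (16.8 to 242). It lies 761 bp from TEAD4, a transcription factor gene on the same strand that fell from 34.0 ± 2.31 to 5.05 ± 1.36 CPM (SD, n = 3; log2 fold change -2.74 ± 0.15 SE, edgeR adjusted p = 7.4e-17). ENSG00000259755 had 68, 71 and 68 reads against 0, 0 and 3 and overlaps LRRK1 on the opposite strand. ENSG00000258365 had 37, 38 and 50 reads with DMSO and none with THZ1, the highest DMSO level among the genes at 0, and was at least 25.7-fold higher with DMSO. It lies opposite PLXNC1, which was lower by less (log2 fold change -1.53 ± 0.14 SE, edgeR adjusted p = 2.5e-11). ENSG00000231964 had 62, 54 and 50 reads against 0, 2 and 2 and lies opposite ALOX5, the 5-lipoxygenase gene (log2 fold change -1.92 ± 0.10 SE, edgeR adjusted p = 1.1e-17).

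Some lost genes overlapped another tested gene on the opposite strand: 24 of 86 protein-coding (27.9%), 32 of 54 long non-coding (59.3%) and 6 of 24 pseudogene loci (25%). The shares among other genes with at least 10 reads in each DMSO library and a mean under 100 were higher, at 36.9%, 72.7% and 29.7%. Whether the counting used strand is not given in the sources used here, and without strand the reads of a gene and of its opposite-strand partner cannot be told apart. KCNMB3 overlaps PIK3CA, the gene of the p110-alpha catalytic subunit of phosphoinositide 3-kinase, on the opposite strand. PIK3CA fell from 54.6 ± 2.13 to 20 ± 1.67 CPM (SD, n = 3; log2 fold change -1.45 ± 0.10 SE, edgeR adjusted p = 1.8e-14), by less than the ratio of KCNMB3. PAX6 overlaps ELP4, an Elongator subunit gene, which was also lower (log2 fold change -2.25 ± 0.18 SE, edgeR adjusted p = 2.7e-13). CHRNA10 overlaps the nucleoporin gene NUP98 on its own strand (log2 fold change -1.02 ± 0.08 SE, edgeR adjusted p = 7.0e-14).

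The nearest tested gene on either side of each lost gene, at any distance, gave 315 genes. These genes, none of them a lost gene, were called lower in 176 cases (55.9%) and higher in 94 (29.8%), with a median log2 fold change of -0.58. Of the 250 protein-coding neighbours, 155 were lower (62.0%), where 47.6% of all protein-coding genes tested were. Neighbours that overlap a lost gene on the opposite strand were lower in 42 of 59 cases (71.2%) and higher in 9, with a median of -1.30. Those opposite a long non-coding lost gene were lower in 24 of 30 cases and higher in 1, and those opposite a pseudogene were lower in 1 of 6 and higher in 4. The median distance was 28038 bp, with overlap as 0, and 23 neighbours lay more than 1000000 bp away. Within 100000 bp, 124 of 220 were lower (56.4%), and farther away 52 of 95 (54.7%). Neighbours that do not overlap were lower in 123 of 238 cases (51.7%), where 41.1% of all genes tested and 47.6% of protein-coding genes tested were. The neighbours were not all lower. MSS51 lies 2872 bp from PPP3CB, a calcineurin subunit gene that fell (log2 fold change -2.89 ± 0.14 SE, edgeR adjusted p = 3.6e-18), while PAN3-AS1 next to FLT3 rose from 12.9 to 49.6 CPM (log2 fold change 1.94 ± 0.11 SE, edgeR adjusted p = 5.1e-17). The lowest neighbours were TCAF1 (-4.92), ENSG00000270127 (-4.67) and UBE2V2 (-4.13). Of these, UBE2V2 lies 3752875 bp from its lost gene, AC090186.1. ENSG00000270127 was itself just outside the limits, with 115, 134 and 93 reads with DMSO and 3, 1 and 4 with THZ1. The highest fitted values were those of CHIT1 (8.85), KRT17P1 (8.42) and STAG1-DT (8.0), which had almost no reads with DMSO, so that their values depend on the fit.

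**Figure D4:**
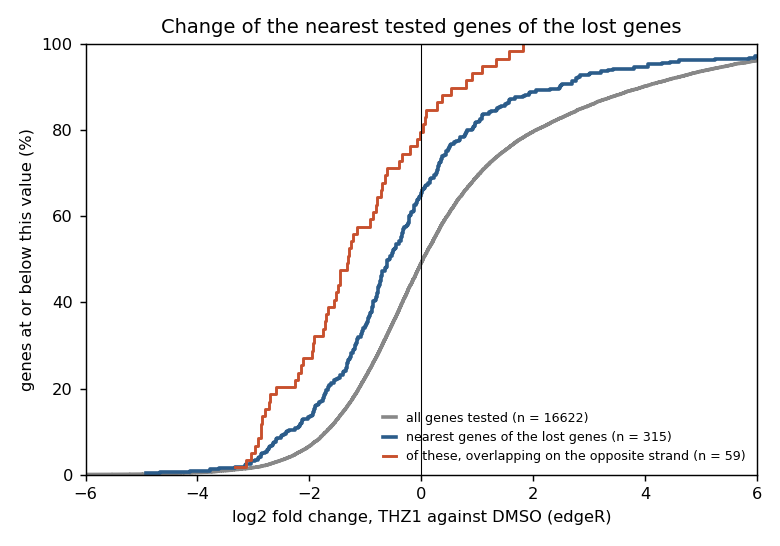
Percent of genes at or below each log2 fold change (THZ1 against DMSO, edgeR, x axis shown from -6 to 6) for all 16622 genes tested (grey), for 315 nearest tested genes beside a lost gene, at any distance (blue) and for 59 of these that overlap it on the opposite strand (orange). The blue curve has its median at -0.58 and the orange at -1.30, against 0.03 for all genes.

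Lost pseudogenes and retrocopies were compared with the genes they were copied from, chosen after the values were seen. Of 13 parent genes tested, 12 were called lower and none higher, with a median log2 fold change of -1.77, where 47.6% of all protein-coding genes tested were lower. TCAF1P1 had 20, 16 and 16 reads with DMSO and none with THZ1, and its parent TCAF1, a regulator of TRP channels that is also its neighbour, fell from 252, 268 and 276 reads to 7, 4 and 5 (log2 fold change -4.92 ± 0.24 SE, edgeR adjusted p = 1.3e-18). HNRNPA1P10 had 58, 51 and 54 reads against 0, 3 and 3, and HNRNPA1, for an abundant splicing factor, fell from 2535 ± 115 to 487.7 ± 10.6 CPM (SD, n = 3; log2 fold change -2.38 ± 0.07 SE, edgeR adjusted p = 5.9e-24). HSPD1P1 had 17, 13 and 17 reads against 0, 0 and 2, and HSPD1, for the mitochondrial chaperonin HSP60, fell from 1154 ± 23.7 to 168.9 ± 8.76 CPM (log2 fold change -2.77 ± 0.07 SE, edgeR adjusted p = 1.9e-25). RLIM, for a ubiquitin ligase, was not called (log2 fold change -0.17 ± 0.09 SE, edgeR adjusted p = 0.091) unless library totals were the only scaling, while its copy RLIMP2 had 18, 36 and 16 reads against 3, 1 and 2. NAIPP4 had 13, 24 and 20 reads with DMSO and none with THZ1, and NAIPP2 had 22, 25 and 18 against 1, 1 and 1. NAIP, their parent and an inflammasome sensor gene, had 24, 28 and 32 reads against 5, 3 and 7 (log2 fold change -1.77 ± 0.40 SE, edgeR adjusted p = 0.00018). Reads of a parent gene can be placed on a near-identical copy, so the copies' counts are uncertain.

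**Figure D5:**
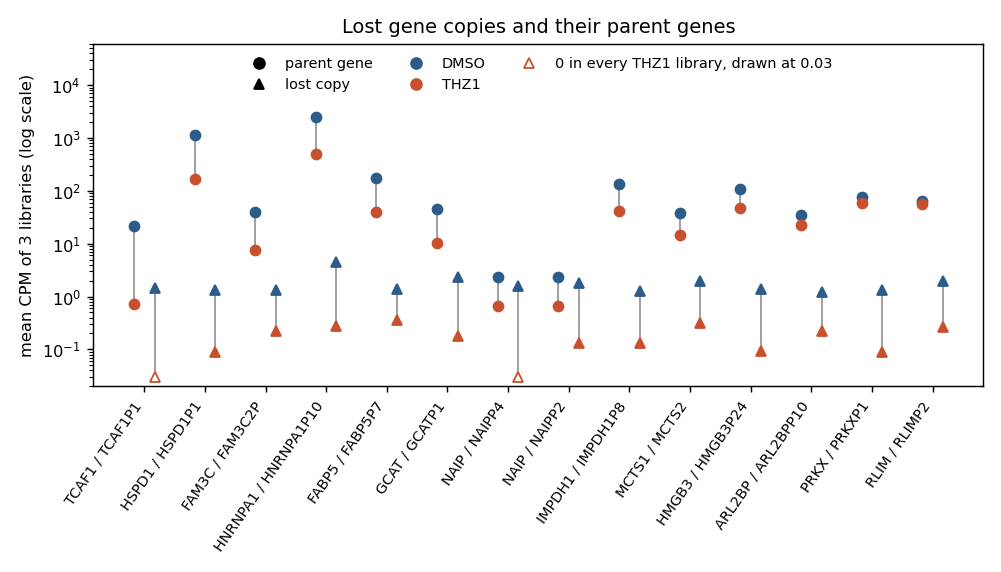
Mean level (CPM of 3 libraries, log scale) of parent genes (circles) and of their lost copies (triangles) with DMSO (blue) and THZ1 (orange), ordered by the parent's fold change from the lowest at left. TCAF1 at the left fell from 22.0 to 0.714 CPM, RLIM at the right moved from 62.9 to 55.9 CPM, and open triangles are copies with 0 reads in every THZ1 library.

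The second deposited table, read here as log2(FPKM + 1), lists 95 of the 180 lost genes, and its sorted values were nearly the same in the libraries of a treatment. FPKM is a level per length of transcript, so these values can be set beside each other between genes. Over the 95 genes the median was 2.36 with DMSO and 0.09 with THZ1 on this log2 scale, and 11 were listed at 0 in every THZ1 library. Among the protein-coding genes named above, MSS51 stood high, at 3.0, 3.07 and 3.16 with DMSO and 0.06, 0.09 and 0.00 with THZ1. NPIPB15, whose counts are uncertain, stood at 3.12, 2.69 and 3.09 with DMSO, CHRNA10 at 2.42, 2.79 and 2.86, and GZMA, with few reads, stood at 2.33, 2.61 and 2.76 with DMSO. TLR10 stood at 2.47, 2.52 and 2.53, above KCNMB3 at 2.05, 2.13 and 2.09, so the order by reads was not the order per length.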

How the data were processed

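Per the study's methods and the submitters' processing notes, the authors trimmed reads with cutadapt, aligned them with STAR to GRCh37 and counted reads per gene with HTSeq. The deposited raw counts were whole reads per gene. The strand setting and annotation used for counting are not given in the sources used here. The deposited log2 values are FPKM levels made by the authors with RSEM, and were used as descriptions only. The lost genes and all lists were chosen with earlier results of these data known.

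Counts were fitted for all genes with edgeR 4.0.16 in R 4.3.3: filterByExpr by treatment (16622 of 57905 genes kept), TMM scaling, quasi-likelihood test, two-sided, Benjamini-Hochberg adjustment over all genes tested, called at an adjusted p below 0.05. CPM used TMM effective library sizes. The fit was run on simulated counts in which 200 genes were changed. Far more genes were called here, so that run cannot speak to the scaling or the number of calls in these data. Of the 180 lost genes, 140 passed the filter and 40 did not, and no test of them was used. Ratios have exact 95% Clopper-Pearson intervals on the split of the reads. A THZ1 sum of 0 was set to 3 reads for folds given as at least a value. Any THZ1 sum below 3 was set to 3 for the median log2 differences of groups of lost genes. Gene positions and kinds came from GENCODE 44 lifted to GRCh37, and promoters from RefSeq. Replicates of a treatment differed by more than sampling noise (chi-square per gene 1.78 to 8.61), so none was counted as a duplicate. Members of each group were named by DMSO level (the 12 protein-coding and 6 non-coding highest, and the 8 highest of those at 0 with THZ1), by family list, by closeness to the limits, or by a printed sequence, and neighbours by fold change or as neighbours of these. Other genes, all roles and all parent genes were chosen after their values were seen. Alternatives were RLE, upper quartile and no scaling factors, DESeq2 1.42.0, a fit to all genes with no filter, a block for the replicate number, fits without 1 library, and other count limits. Values of 2 genes are not reported here.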

Additional observations from a re-analysis of the deposited data

How the results depend on the processing

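The number of lost genes depends on the limits. It was 14 with 0 reads required in each THZ1 library and 323 with up to 5 allowed. With at least 20 reads in each DMSO library it was 65, and with counts first scaled to a common library size 79. That scaling lowers the counts of the larger DMSO libraries and raises those of the smaller THZ1 libraries. With 1 library left out the number of lost genes was 208 to 239, since fewer libraries must pass. The median length of protein-coding lost genes was 4754.5 bp by summed exons in place of the span, and the median span was 34235.5 bp for those with at least 20 reads in each DMSO library. Neighbours called lower numbered 159 to 199 of 315 over the 3 other scalings (176 as reported), 161 with DESeq2, 187 without the filter and 169 to 179 with 1 library left out, and 124 of 220 within 100000 bp, an alternative chosen after seeing the data. Their share stayed above that of all genes tested under each scaling, 50.5% against 36% with upper quartile factors and 63.2% against 48.0% with library totals alone. Of the 315, however, 250 were protein-coding, and 47.6% of all protein-coding genes tested were lower under the main scaling. The median of all genes moved from 0.03 to 0.22 and -0.22 with these scalings, and the calls of ZNF639, TEC, TMED3, MARCHF8, WWOX, FAM8A1, RLIM, KLF3, NUDT6, RAD17 and KCNMB1 depend on it. Family genes called lower numbered 278 to 380 of 809 over the scalings, and 301 to 324 with 1 library left out. All genes called lower numbered 5976 to 7985.

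With the replicate number as a replicate block, 6786 genes were called lower in all, 175 neighbours and 311 family genes. Same-numbered libraries did not deviate together (correlations -0.004, 0.001 and 0.021), and the main fit used the numbers only as names. The labels do not say whether libraries of the same number were paired. Depth limits each lost gene: with 3 or fewer reads a level near 0 and a low level cannot be told apart.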

Other observations

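The opposite limits, at most 3 reads in each DMSO library and at least 10 in each THZ1 library, were met by 849 genes, against 180 lost genes, although the THZ1 libraries were the smaller ones (73.4% of the DMSO total). Read counts are shares of a library, so a change in RNA per cell common to all genes would show in neither number. Of the PI3K subunit genes, to which PIK3CA opposite KCNMB3 belongs, 7 of 8 tested were lower, 0 were higher, and the median log2 fold change was -1.24 (6 lower with upper quartile factors). The genes of the cilium and intraflagellar transport list were lower in 89 of 163 cases (54.6%) and higher in 48 (29.4%). That list holds no lost gene, but it is not complete, as LCA5, the lost gene of a ciliary protein named above, is not on it. Histone genes, also without a lost gene, were higher in 37 of 41 cases, with a median log2 fold change of 4.68.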
